A study of Homo sapiens with 6 samples.

Results

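Reads on trypsinogen genes and related serine protease genes were examined in K562, an established human cell line from chronic myeloid leukemia with erythroid character. The 6 genes, *PRSS1*, *PRSS2*, *PRSS3*, *PRSS3P1*, *PRSS57* and *PRSS21*, were taken from 60671 gene rows by their GENCODE symbols. The symbols were chosen on measured values of these libraries, those of the comparison of EZH2 inhibition with vehicle, so the members' values in that comparison are a description, and which members the rule for all genes called is listed only as a count, not as a test of them. All cells came from 1 clone in which doxycycline switches on M.CviPI, an enzyme that methylates cytosine in GpC, joined to Lamin B1. Cultures were kept for 72 h in 1 µM GSK343, an inhibitor of the histone H3 lysine methyltransferase EZH2 (EZH2i), or in vehicle (DMSO, 0.1% v/v), with 3 separate cultures in each group. All 6 cultures received 1 µg/mL doxycycline for the last 24 h, so the joined enzyme was induced in vehicle cultures too. Libraries were made with a kit that reads messenger RNA from its 3′ end, and the authors deposited raw counts of reads per gene. In order of replicate number, reads on genes came to 6327544, 8711246 and 8987768 for DMSO, then 7273739, 7913358 and 6926167 for EZH2i; library values are given in this order throughout. Reads that matched no annotated gene took 12.7% of the listed reads in EZH2i replicate 3 and at most 8.51% elsewhere, and the part of this in the results was not tested. The comparison asks how each gene's level differs after 72 h with the EZH2 inhibitor.

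Trypsinogens are the inactive precursors of trypsin, a serine protease that acinar cells of the pancreas secrete into the gut. Enteropeptidase, encoded by *TMPRSS15*, cuts off a short leader peptide, and active trypsin then switches on further trypsinogen and other digestive enzymes. *PRSS1* encodes cationic trypsinogen, *PRSS2* encodes anionic trypsinogen and *PRSS3* encodes mesotrypsin, which resists common trypsin inhibitors, while *PRSS3P1* is annotated as a pseudogene. *PRSS21* encodes testisin, a membrane-anchored protease known from the testis, and *PRSS57* encodes a serine protease of neutrophil granules. *PRSS1*, *PRSS2* and *PRSS3P1* lie inside the T cell receptor beta locus on chromosome 7, and *PRSS3* lies in a copied part of it on chromosome 9.

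The trypsinogen genes are near copies of each other, so how well reads can be assigned depends on the 3′ part of their transcripts, where the reads of these libraries, 50 bases long, fall. Over the last 500 bases of all annotated transcripts, 89.0% of the 972 distinct 50-base windows of *PRSS2* were found in no second place, and so were 87.6% of the 1309 windows of *PRSS1*. Windows were searched as exact matches on both strands of the primary assembly, and those across a splice junction, 138 for *PRSS2* and 139 for *PRSS1*, which the assembly does not hold, in the transcripts of other genes. The share was 93.9% of 1200 windows for *PRSS3*, 85.4% of 451 for *PRSS3P1* and 100% for both *PRSS57* (451 windows) and *PRSS21* (1924 windows). Of the *PRSS2* windows, 62 were shared with *PRSS3P1*, 45 with *PRSS1*, 14 with *PRSS3* and 19 with places that hold no annotated exon. A window can be shared with more than 1 of these. Of the *PRSS1* windows, 99 were shared with *PRSS2*, 28 with *PRSS3*, 26 with *PRSS3P1* and 80 with places without an annotated exon. The *PRSS3* windows were shared most often with *TMEM45B* (40) and then with *PRSS3P1* (24). In the reference transcript of *PRSS2* the closest shared window to the 3′ end stopped 48 bases before it, and in that of *PRSS1* 289 bases before it. The last 300 bases of the *PRSS1* reference transcript held no shared window, and 75.3% of the windows there in *PRSS2* were found in no second place. Reads with several alignments made up from 21.4% to 22.3% of the listed reads of a library and were not counted on any gene, so reads of these genes may be missing from the counts, and a read that differs from a copy by few bases may be counted on the wrong gene. One annotated *PRSS2* transcript begins just before the pseudogene's annotated start, and the 2 genes share 40 exon bases there, far from the 3′ end. *PRSS3* shares 72 exon bases with the antisense gene *UBE2R2-AS1*, which had 0 reads, and no further exon bases of a member overlap another annotated gene. The plot of windows along the transcripts shows these positions.

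**Figure D1:**
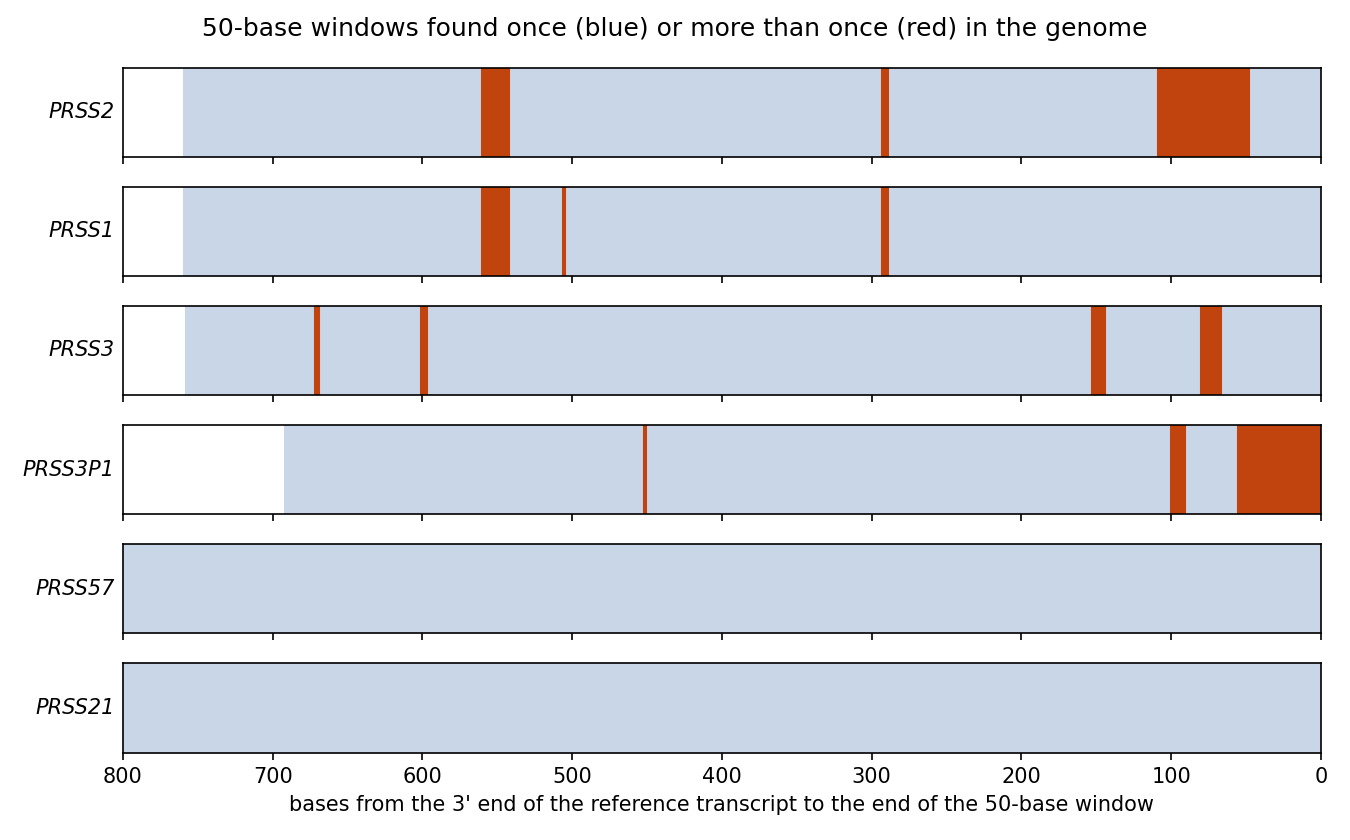
Windows of 50 bases along the reference transcript of each of the 6 genes, placed by the distance in bases from the transcript's 3′ end (right, 0) to the window's last base, up to 800 bases. Blue windows were found in no second place and red windows in more than 1 on the primary assembly or, across a splice junction, in another gene's transcripts; near the 3′ end *PRSS2* has a red block that begins 48 bases from the end, while *PRSS57* and *PRSS21* are blue throughout this range.

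*PRSS2* (ENSG00000275896, chr7:142760398-142774564, plus strand) held nearly all reads of the trypsinogen genes. The DMSO libraries held 856, 1298 and 1087 of its reads and the EZH2i libraries 2499, 2258 and 2080. As TMM-scaled counts per 1e6 reads on genes (CPM), these were 134, 154 and 123 for DMSO, then 337, 284 and 297 for EZH2i. Every EZH2i library lay above every DMSO library, and the lowest EZH2i value was well above the highest DMSO value. The means were 137 ± 15.6 and 306 ± 27.9 CPM (SD, n = 3 each), 2.24-fold apart, and the log2 fold change was 1.16 (SE 0.112). These are bulk cultures, so more expressing cells and more RNA per cell cannot be told apart.

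*PRSS1* (ENSG00000204983, chr7:142749468-142753072, plus strand) lies upstream of *PRSS2* and had 8, 13 and 9 reads in DMSO and 13, 16 and 17 in EZH2i. In CPM these were 1.25, 1.54 and 1.02 and then 1.75, 2.01 and 2.43. The groups did not overlap, but neighbouring libraries of the groups were close. The means were 1.27 ± 0.261 and 2.06 ± 0.339 CPM (SD, n = 3 each). The log2 fold change of 0.69 had a SE of 0.392, so the value is uncertain at these counts. Summed over the libraries, *PRSS1* had 30 reads in DMSO (95% exact Poisson interval 20.2 to 42.8) and 46 in EZH2i (33.7 to 61.4), which cover counting error only.

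*PRSS1* took a small share of the reads on these neighbours. Of the reads on *PRSS1* and *PRSS2* together, *PRSS1* held 0.913% ± 0.0860 under DMSO against 0.677% ± 0.148 under EZH2i (SD, n = 3 each). With 95% exact binomial intervals, the share in the DMSO libraries was 0.926% (0.401 to 1.82), 0.992% (0.529 to 1.69) and 0.821% (0.376 to 1.55). In the EZH2i libraries it was 0.518% (0.276 to 0.883), 0.704% (0.403 to 1.14) and 0.811% (0.473 to 1.29). Every EZH2i share was below every DMSO share, with replicate 3 of each group close together, and the difference was not tested. Whether the reads counted on *PRSS1* came from *PRSS1* or were *PRSS2* reads with errors was not tested.

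*PRSS3* and *PRSS3P1* were at the floor of detection. *PRSS3* (ENSG00000010438, chr9:33750679-33799231, plus strand) had 1, 0 and 0 reads in DMSO and 0, 1 and 1 in EZH2i. *PRSS3P1* (ENSG00000250591, chr7:142760415-142763943, plus strand) had 0 reads in each DMSO library and 2, 0 and 0 in EZH2i. A count of 0 allows up to 3 reads, which is from 0.340 to 0.468 CPM in these libraries. Neither gene passed the filter on low counts, and with both groups at or under 3 reads per library no fold is given.

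*PRSS21* (ENSG00000007038, chr16:2817180-2826304, plus strand) was the other well-expressed member. Its CPM was 83.0, 83.4 and 85.7 in DMSO and 113, 82.1 and 91.1 in EZH2i. The EZH2i libraries surrounded the DMSO values, with replicate 1 the highest and replicate 2 below all DMSO libraries. The means were 84.0 ± 1.46 and 95.3 ± 15.8 CPM (SD, n = 3 each), and the log2 fold change of 0.18 (SE 0.119) became 0.05 without EZH2i replicate 1 and 0.28 without EZH2i replicate 2.

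*PRSS57* (ENSG00000185198, chr19:685546-695498, minus strand) was low. Its reads numbered 9, 15 and 14 in DMSO and 32, 23 and 14 in EZH2i, and its CPM was 1.40, 1.78 and 1.58 and then 4.32, 2.89 and 1.998. The EZH2i libraries lay above the DMSO libraries but were spread widely, and replicate 3 was close to the highest DMSO library. The means were 1.59 ± 0.186 and 3.07 ± 1.17 CPM (SD, n = 3 each). The log2 fold change was 0.94 (SE 0.374), and 0.62 without EZH2i replicate 1.

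Because reads come from the 3′ end, CPM does not grow with transcript length as in whole-transcript libraries, and both scales are given. Per kb of annotated exon, mean levels in DMSO were 109 CPM for *PRSS2*, 42.7 for *PRSS21*, 1.46 for *PRSS57* and 0.678 for *PRSS1*. In EZH2i they were 243, 48.5, 2.82 and 1.10 CPM per kb in the same order. The order of these genes was the same on both scales and in both groups, with *PRSS3* and *PRSS3P1* below all of them. On the CPM scale the libraries of *PRSS57* and *PRSS1* overlapped in both groups and per kb they did not, while *PRSS2* and *PRSS21* were apart from each other and from the rest on both scales.

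Of the 6 members, 4 passed the filter and 2 did not. By the rule used for all genes (adjusted p under 0.05, edgeR), 1 of these 4, *PRSS2*, was called higher in EZH2i, beside 3.34% of the 12364 tested genes, and none was called lower; calls in either direction took 4.26% of the tested genes. For 3 members (*PRSS2*, *PRSS1* and *PRSS57*) the lowest EZH2i library exceeded the highest DMSO library, a pattern found in 13.3% of tested genes. Since this contrast chose the members, nothing is read from these counts. Over all tested genes 413 were higher and 114 lower, and the total of 527 became 213, 209 and 240 when DMSO replicate 1, 2 or 3 was left out. The plot of the members by library shows the values.

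**Figure D2:**
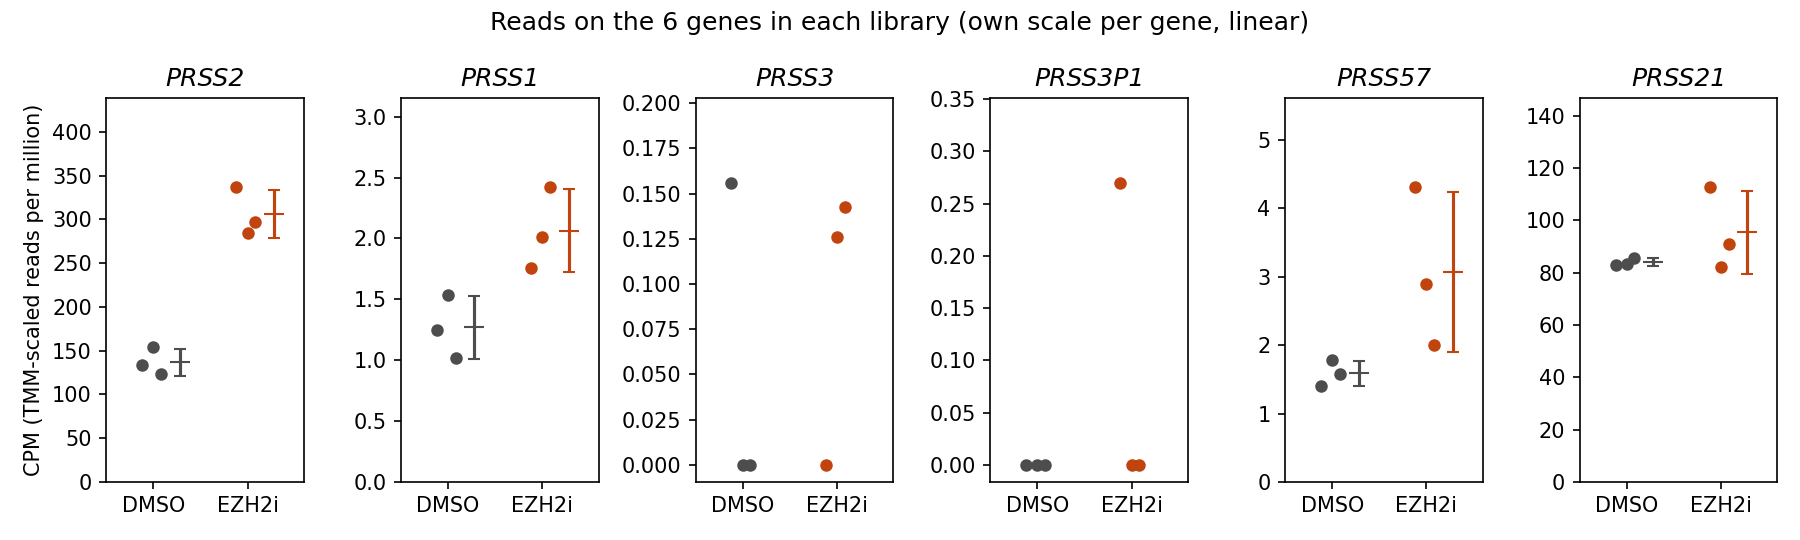
CPM of the 6 genes in each library, 1 panel per gene with its own linear scale; grey points are DMSO and red points EZH2i libraries, and bars give the mean ± SD (n = 3 each) for the 4 genes that passed the filter. The *PRSS2* groups stand apart, from 123 to 154 CPM in DMSO and from 284 to 337 CPM in EZH2i, while *PRSS3* and *PRSS3P1* show at most 2 reads in a library.

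The RefSeq promoter table for GRCh38.p14 held 5 of the 6 genes, all but *PRSS3P1*. The 250 bases before the RefSeq start are shown for the 3 trypsinogen genes, whose read counts were very different. For all 3 genes this start lies inside the GENCODE span given above, by a few bases for *PRSS1* and much further for *PRSS2* and *PRSS3*, which have annotated transcripts that begin far upstream. Reads from the 3′ end do not show which start was in use, so the read counts cannot be tied to these sequences. Capitals mark bases that did not match *PRSS2* in a global alignment.
PRSS2, chr7:142770720-142770969, plus strand: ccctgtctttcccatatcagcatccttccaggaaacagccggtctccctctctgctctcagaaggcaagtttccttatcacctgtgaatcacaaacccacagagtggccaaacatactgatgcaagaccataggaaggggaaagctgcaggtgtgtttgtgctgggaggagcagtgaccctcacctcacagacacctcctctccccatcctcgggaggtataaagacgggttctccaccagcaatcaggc
PRSS1, chr7:142749222-142749471, plus strand: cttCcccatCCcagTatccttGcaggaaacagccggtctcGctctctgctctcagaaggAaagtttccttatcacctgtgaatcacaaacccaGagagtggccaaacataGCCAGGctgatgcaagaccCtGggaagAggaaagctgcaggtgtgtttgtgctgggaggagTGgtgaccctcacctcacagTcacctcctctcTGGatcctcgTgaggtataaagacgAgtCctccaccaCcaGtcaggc
PRSS3, chr9:33795311-33795560, plus strand: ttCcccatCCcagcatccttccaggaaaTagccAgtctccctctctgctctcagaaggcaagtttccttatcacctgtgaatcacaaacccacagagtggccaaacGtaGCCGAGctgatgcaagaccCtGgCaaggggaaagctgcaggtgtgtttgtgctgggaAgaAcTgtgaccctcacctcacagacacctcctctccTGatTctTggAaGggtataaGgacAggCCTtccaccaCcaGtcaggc
Identity to *PRSS2* over the aligned columns was 86.7% for *PRSS1* and 85.2% for *PRSS3*, against 54.7% for *PRSS57* and 50.2% for *PRSS21*. The letters TATAAA, searched on both strands, occurred in *PRSS1* and *PRSS2*, in each at position -32 from the RefSeq start, and in 10.7% of all 35116 promoters in the table. The letters GATAA, also searched on both strands, occurred once in each of *PRSS1*, *PRSS2*, *PRSS3* and *PRSS57*, in none of the *PRSS21* window, and in 20.4% of all promoters. CG dinucleotides numbered 3 in *PRSS2*, 4 in *PRSS1* and 2 in *PRSS3*, against 12 in *PRSS57*, 11 in *PRSS21* and a median of 11 over all promoters. A match of letters is a description of the sequence and not a site of binding.

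Other trypsinogen copies and the products of acinar cells gave almost no reads. Of 7 further trypsinogen genes and pseudogenes, 4 were in the annotation (*PRSS3P3*, *PRSS3P4*, *PRSS58* and *PRSS59P*), and all had 0 reads in the 6 libraries. Of 27 acinar genes none passed the filter, and 18 had 0 reads in every library, among them those for carboxypeptidase A (*CPA1*), chymotrypsinogen (*CTRB1*), pancreatic lipase (*PNLIP*), amylase (*AMY2A*) and the acinar regulator *PTF1A*. Their summed reads were 8, 6 and 12 in DMSO and 16, 10 and 12 in EZH2i. The genes with the highest mean were *CEL*, with 0, 3 and 3 reads in DMSO and 6, 4 and 4 in EZH2i, *AMY2B* and *CELA1*, the latter 2 with at most 5 reads in a library. Together the 27 genes, whose products are secreted with trypsinogen or direct acinar identity, had at most 16 reads in a library in which *PRSS2* had 2499.

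Among 29 other genes with a PRSS or TMPRSS symbol, 3 passed the filter and none passed the threshold with edgeR, DESeq2 or limma-voom, nor an unadjusted p of 0.05 with edgeR. *PRSS16*, a thymus protease, was the most abundant, at 22.7 ± 3.22 CPM under DMSO against 20.6 ± 1.94 under EZH2i (SD over n = 3 libraries), with a log2 fold change of -0.14 (SE 0.151). The values were -0.08 (SE 0.271) for the epithelial protease prostasin, *PRSS8*, and 0.56 (SE 0.408) for *TMPRSS4*. Their median log2 fold change was -0.08, and that of all tested genes was -2.15e-04.

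Granule proteases, the wider group to which *PRSS57* belongs, were mostly silent. Of 16 genes 11 had 0 reads in every library, including neutrophil elastase (*ELANE*) and cathepsin G (*CTSG*), and 2 passed the filter. *CTSC*, which processes granule proteases, had a log2 fold change of -0.01 (SE 0.101) and complement factor D, *CFD*, of -0.17 (SE 0.137), neither past the threshold with edgeR, DESeq2 or limma-voom, nor past an unadjusted p of 0.05 with edgeR. The third by mean level, proteinase 3 (*PRTN3*), had 1, 11 and 2 reads in DMSO and 2, 5 and 20 in EZH2i, too few and too uneven to pass the filter. The median of the tested genes was -0.09.

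Of 41 other serine protease genes, 5 passed the filter, 1 was called higher and none lower by edgeR, DESeq2 and limma-voom alike (1 higher and 1 lower at an unadjusted p of 0.05, edgeR). With edgeR, 3.34% of all tested genes were called higher. *RELN* rose in 3 of 3 EZH2i libraries, from 54.2 ± 3.95 CPM to 79.2 ± 13.9 (SD over n = 3 libraries each), with a log2 fold change of 0.55 (SE 0.127, adjusted p = 0.0213, edgeR). Reelin is better known as a secreted protein that guides neurons than as a protease, and it does not stand for the list. Its call was lost without any of the DMSO replicates and without EZH2i replicate 3, with an adjusted p (edgeR, DESeq2 or limma-voom) from 0.00251 to 0.0987 over 12 alternatives. The other 4, *PLAU*, *KLK1*, *HTRA2* and *F12*, had log2 fold changes from -0.75 to 0.41, and the median of the 5 was -0.08.

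Protease inhibitors were represented by 35 genes, of which 10 passed the filter, 1 was called higher and none lower by edgeR, DESeq2 and limma-voom alike (2 higher and 0 lower at an unadjusted p of 0.05, edgeR). The edgeR share called higher over all tested genes was 3.34%. *SERPING1*, which encodes the C1 inhibitor of the complement system, had 1, 5 and 1 reads in DMSO and 27, 22 and 31 in EZH2i. It passed the filter on low counts only through its EZH2i libraries, so its place among the tested genes already depended on its EZH2i level. It rose from 0.287 ± 0.265 CPM to 3.61 ± 0.830 (SD over n = 3 libraries each), with a log2 fold change of 3.54 (SE 0.522, adjusted p = 0.00101, edgeR), in 3 of 3 EZH2i libraries. With so few DMSO reads its size is uncertain: leaving out DMSO replicate 2 gave a log2 fold change of 4.61 and leaving out DMSO replicate 3 gave 3.11. *SPINK1*, the trypsin inhibitor that acinar cells store with trypsinogen, had 0 reads in all libraries. *TFPI*, an inhibitor of coagulation proteases, was the most abundant, at 1317 ± 41.6 CPM under DMSO against 1174 ± 129.5 under EZH2i (SD over n = 3 libraries), not past the threshold (log2 fold change -0.17, adjusted p = 0.414, edgeR). The median of the 10 was 0.17, with 8 above 0.

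Of 10 activators, degraders and receptors of trypsin, 5 passed the filter and none passed the threshold with edgeR, DESeq2 or limma-voom, nor an unadjusted p of 0.05 with edgeR. Enteropeptidase (*TMPRSS15*) and chymotrypsin C (*CTRC*), which activate and degrade trypsinogen, had 0 reads in all libraries. The lysosomal proteases cathepsin B, D and L, of which cathepsin B can activate trypsinogen, were present. *CTSB*, the most abundant, stood at 179, 181 and 154 CPM in DMSO and 168, 177 and 179 in EZH2i, and the log2 fold changes were 0.03 (SE 0.102) for *CTSB*, 0.12 (SE 0.103) for *CTSD* and -0.24 (SE 0.154) for *CTSL*. The median of the 5 was 0.03. The plot of the lists over all tested genes shows where these genes lie.

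**Figure D3:**
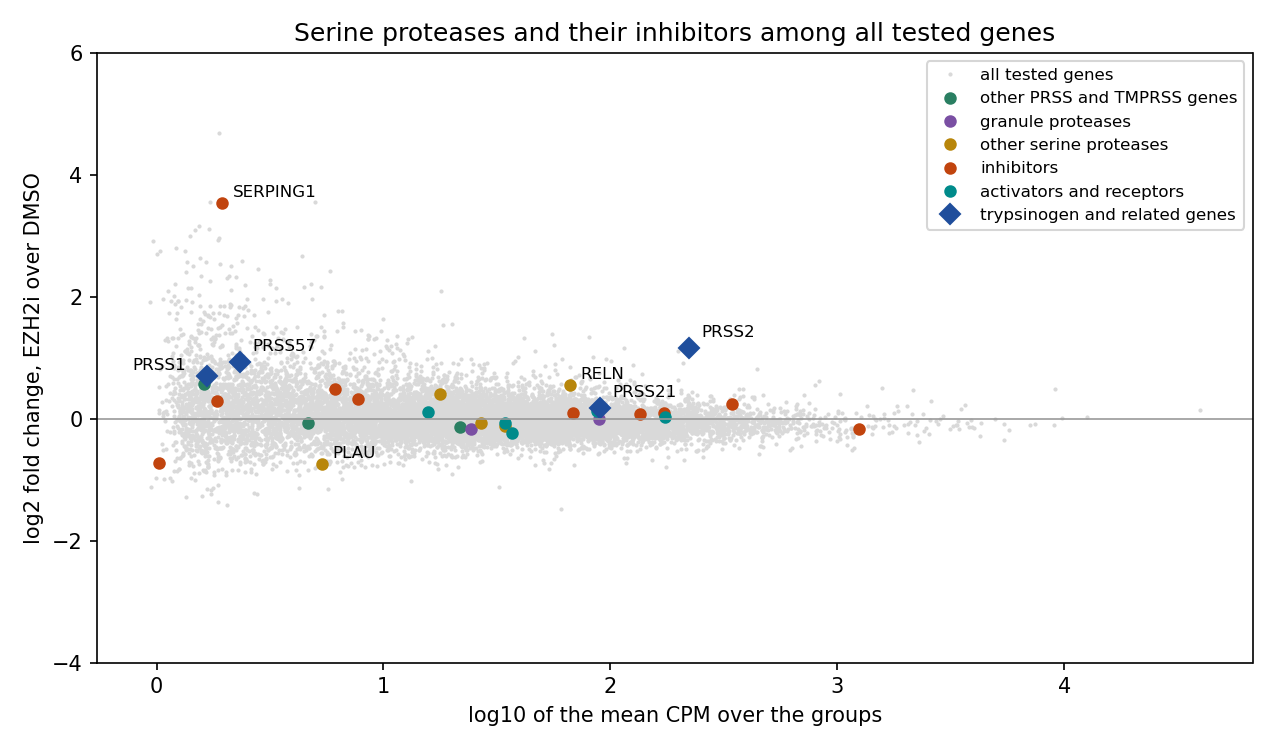
Log2 fold change of EZH2i over DMSO against the log10 of the mean CPM of the groups, for the 12364 tested genes (grey) and, in colour, the tested genes of 5 lists and the 4 tested members (blue diamonds). Of the coloured genes *SERPING1* at 3.54 lies highest, followed by *PRSS2* at 1.16, and *PLAU* at -0.75 lies lowest.

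The genes around each member were read from the same fit, taking those whose whole span lies within 200 kb of its ends. Distances run from the upstream end of each GENCODE span, which is not the RefSeq start. Of 32 such tested genes that are not members, 4 were called higher and none lower, that is 12.5% of them called higher beside 3.34% of all tested genes, a difference that was not tested, and the 4 were spread over 3 of the 4 regions. Among the 4, *ZG16B* near *PRSS21* would not have passed the filter on low counts by its DMSO libraries alone. DESeq2 called 3 higher and limma-voom 4, and neither called any lower; at an unadjusted p of 0.05 edgeR had 6 higher and 1 lower. Around *PRSS2* all 4 tested neighbours had values above 0. *EPHB6*, a kinase-dead ephrin receptor that starts 94.7 kb from the GENCODE start of *PRSS2*, rose in 3 of 3 EZH2i libraries, from 156 ± 21.9 CPM to 241 ± 11.2 (SD over n = 3 libraries each), with a log2 fold change of 0.63 (SE 0.113, adjusted p = 0.00386, edgeR). *KEL*, the Kell blood group antigen of red cells, starts 202 kb away and rose in 3 of 3 EZH2i libraries, from 77.7 ± 4.95 CPM to 106 ± 9.22 (SD over n = 3 libraries each), with a log2 fold change of 0.45 (SE 0.108, adjusted p = 0.0260, edgeR). The call of *KEL* was lost without any of the DMSO replicates and without EZH2i replicate 3, with an adjusted p (edgeR, DESeq2 or limma-voom) from 0.0193 to 0.126 over 12 alternatives. The T cell receptor beta segments *TRBC1* and *TRBV28* had few reads, and their values of 1.05 (SE 0.339, adjusted p = 0.0903, edgeR) and 0.75 (SE 0.469, adjusted p = 0.401, edgeR) did not pass the threshold. *TRBC1* has a close copy, *TRBC2*, so its count is uncertain.

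Because the locus belongs to T cells, markers of that type were read beside it. Of 8 T cell markers 2 passed the filter and both were called higher, beside 3.34% of all tested genes called higher. *TRAC*, the constant segment of the alpha chain, rose in 3 of 3 EZH2i libraries, from 6.48 ± 1.77 CPM to 15.1 ± 1.97 (SD over n = 3 libraries each), with a log2 fold change of 1.20 (SE 0.211, adjusted p = 0.00349, edgeR). *CD3D*, the most abundant of the list, rose in 3 of 3 EZH2i libraries, from 63.6 ± 5.80 CPM to 87.7 ± 9.53 (SD over n = 3 libraries each), with a log2 fold change of 0.46 (SE 0.115, adjusted p = 0.0309, edgeR), a call lost in 4 of the 6 fits that left out a library, those without any DMSO replicate and without EZH2i replicate 1, with an adjusted p (edgeR, DESeq2 or limma-voom) from 0.0169 to 0.148 over 12 alternatives. The summed level of the list was 63.6, 69.5 and 79.3 CPM in DMSO and 113, 98.9 and 101 in EZH2i. The defining markers *CD8A* and *CD4* had 0 reads and 1 read in all 6 libraries together, *LCK* had at most 3 and *CD2* at most 4 reads in a library. *CD3E*, also below the filter, had 1, 0 and 8 reads in DMSO and 8, 4 and 3 in EZH2i. For *CD3G*, likewise not tested, the reads were 1, 5 and 2 and then 5, 8 and 2. The part of these transcripts in the values around *PRSS2* was not tested.

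Around *PRSS57* 13 neighbours were tested and 1 was called. *PALM*, which encodes the membrane protein paralemmin and starts upstream at -13.4 kb, rose in 3 of 3 EZH2i libraries, from 41.4 ± 3.63 CPM to 72.0 ± 4.75 (SD over n = 3 libraries each), with a log2 fold change of 0.80 (SE 0.115, adjusted p = 8.52e-04, edgeR). The other 12, *CFD*, *MED16*, *PLPPR3*, *PTBP1*, *FSTL3*, *RNF126*, *POLRMT*, *HCN2*, *BSG*, *BSG-AS1*, *CDC34* and *TPGS1*, lay between -0.49 (*FSTL3*) and 0.52 (*PLPPR3*) on the log2 scale. Around *PRSS21* 14 were tested. *ZG16B*, a lectin gene that starts 13.1 kb away, had 8, 12 and 5 reads in DMSO and 33, 24 and 21 in EZH2i, and rose in 3 of 3 EZH2i libraries, from 1.08 ± 0.452 CPM to 3.49 ± 0.836 (SD over n = 3 libraries each), with a log2 fold change of 1.70 (SE 0.401, adjusted p = 0.0237, edgeR). It passed the filter on low counts through its EZH2i libraries, since its DMSO libraries alone would not have passed. Its call was lost without any of the DMSO replicates, without EZH2i replicate 1 and with DESeq2, with an adjusted p from 0.00269 to 0.107 over 11 alternatives (edgeR, DESeq2 or limma-voom). The other 13, *ERVK13-1*, *KCTD5*, *SRRM2*, *ELOB*, *FLYWCH1*, *FLYWCH2*, *KREMEN2*, *PKMYT1*, *PAQR4*, *TNFRSF12A*, *HCFC1R1* and a pair without a symbol, lay between -0.41 (*KREMEN2*) and 0.31 (*ERVK13-1*). Next to *PRSS3* only *UBE2R2* was tested, at -0.02 (SE 0.104). Median log2 fold changes of the tested neighbours were 0.69 around *PRSS2*, 0.01 around *PRSS57* and 0.02 around *PRSS21*, and no region was tested against another. The plot of neighbours by distance shows these values.

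**Figure D4:**
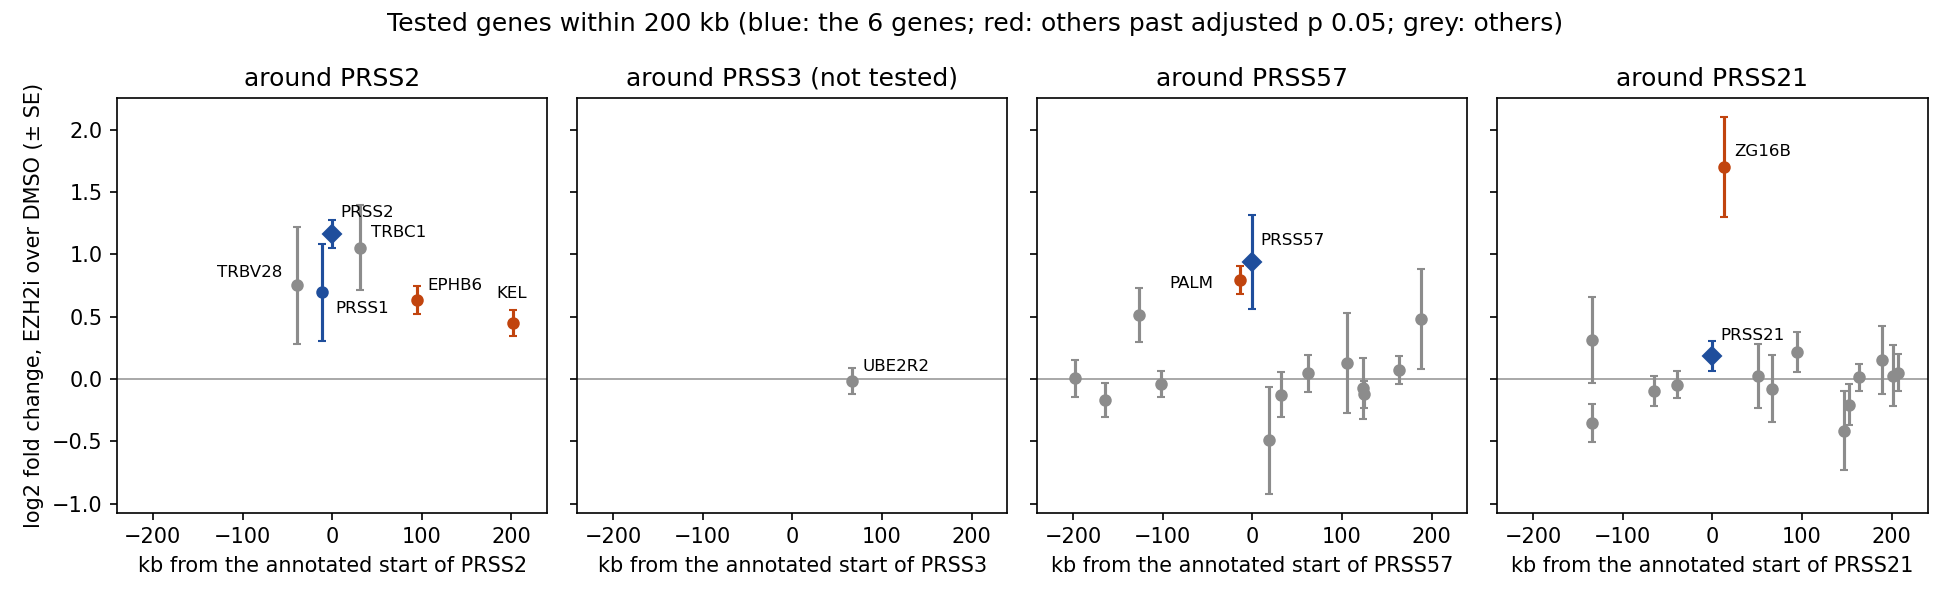
Log2 fold change of EZH2i over DMSO (± SE) of tested genes whose span lies within 200 kb of *PRSS2*, *PRSS3*, *PRSS57* or *PRSS21*, against the distance in kb between GENCODE starts (negative, upstream). Blue marks members, red other genes past an adjusted p of 0.05 (edgeR) and grey the rest; around *PRSS2* all 4 other genes lie above 0, while around *PRSS57* and *PRSS21* most lie near 0 apart from *PALM* and *ZG16B*.

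The 5 tested genes whose log2 CPM, centred on its mean over the 6 libraries, lay nearest to *PRSS2* were *CD82*, ENSG00000286261 (a row whose identifier had no match in the annotation), *ZNF438*, *SLC44A1* and *PDLIM2*. Their root mean square differences from *PRSS2* over the 6 libraries were 0.0570, 0.0663, 0.0807, 0.100 and 0.101 on the log2 scale. They were picked for this likeness, so their values are a description. *CD82*, a tetraspanin gene, stood at 5.30, 5.57 and 4.75 CPM in DMSO and 12.1, 11.2 and 11.1 in EZH2i. *PDLIM2*, which encodes a PDZ and LIM domain protein, was the most abundant of the 5, with means of 26.0 ± 1.80 and 52.6 ± 7.50 CPM (SD, n = 3 each). *SLC44A1*, a choline transporter gene, had means of 2.88 ± 0.248 and 6.63 ± 0.318 CPM (SD, n = 3 each). ENSG00000286261 had 5, 8 and 7 reads in DMSO and 16, 14 and 12 in EZH2i, and *ZNF438* had 5, 8 and 7 and then 17, 16 and 15. These 2 passed the filter on low counts only through their EZH2i libraries, and at such counts their likeness to *PRSS2* is uncertain. All 5 were low in the DMSO and high in the EZH2i libraries, as *PRSS2* was, and none lies near it in the genome where a position is known. The plot of centred levels shows how close they run.

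**Figure D5:**
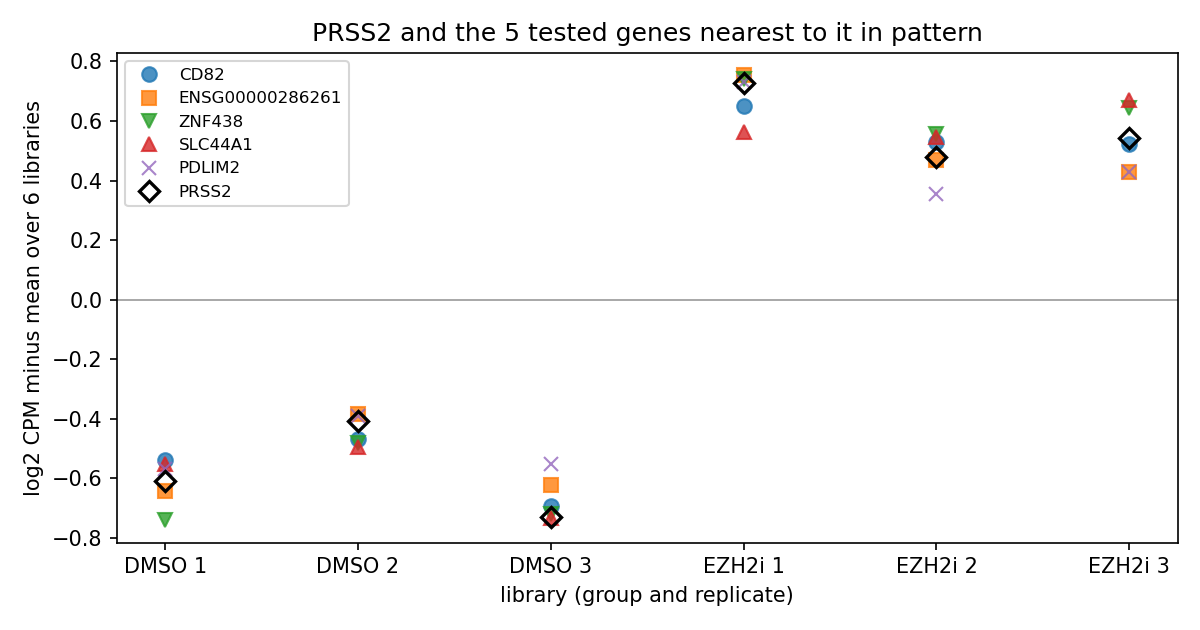
Log2 CPM minus the mean over the 6 libraries (vertical axis) for *PRSS2* (black diamonds) and the 5 tested genes nearest to it in pattern, by library. All 6 genes lie below 0 in every DMSO library and above 0 in every EZH2i library.

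Markers were read to check the line. All 11 erythroid markers had reads and 10 passed the filter, with summed levels of 1084, 969 and 972 CPM in DMSO and 1156, 1106 and 1089 in EZH2i. The transferrin receptor, *TFRC*, was the most abundant, at 305 ± 47.0 and 277 ± 31.7 CPM (SD, n = 3 each). The embryonic globin *HBZ* (log2 fold change 1.15, adjusted p = 6.14e-05, edgeR) and the fetal globin *HBG2* (0.58, adjusted p = 0.0251, edgeR) were called higher, each in 3 of 3 EZH2i libraries; both have close relatives or overlapping exons, so their counts are uncertain, and the call of *HBG2* was lost without any DMSO replicate (adjusted p from 3.95e-04 to 0.138 over 12 alternatives with edgeR, DESeq2 or limma-voom). Of 7 neutrophil precursor markers, the cell type of *PRSS57*, only lysozyme (*LYZ*) passed the filter, at 13.9 ± 2.72 CPM under DMSO against 21.2 ± 1.56 under EZH2i (SD over n = 3 libraries). It was called higher, in 3 of 3 EZH2i libraries and with a log2 fold change of 0.62 (SE 0.167, adjusted p = 0.0426, edgeR), but the call was lost in each of the 6 fits that left out a library and with DESeq2 (adjusted p from 0.0202 to 0.160 over 12 alternatives with edgeR, DESeq2 or limma-voom). *ELANE* and *CTSG* were at 0 and *MPO* had 1 read in all, and the list summed to 16.8, 15.6 and 11.5 CPM in DMSO and 23.9, 21.5 and 23.1 in EZH2i. Of 7 germ cell markers, the lineage of *PRSS21*, none passed the filter, 4 had 0 reads, and the most abundant, *SYCP3*, had at most 2 reads in a library, as did *ACRV1*, while *DDX4* had 1 read in all. The part of these marker levels in the members' values was not tested.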

How the data were processed

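RNA was taken from 6 cultures of the clone. According to the study's methods, QuantSeq 3′ FWD libraries were sequenced as single reads of 50 bases and processed with the kit maker's pipeline on hg38; the submitters' processing notes name STAR 2.6.0c and HTSeq 0.11.2. The authors deposited raw read counts per Ensembl gene for each library, without normalization. The study names the Ensembl release 101 primary assembly and annotation of GRCh38 for these data, and the strand setting of the counting is not given in the sources used here. A deposited table of the authors' own DESeq2 comparison holds mean counts, fold changes and p-values and was not used. Summary lines for reads on no gene entered neither library sizes nor tests: reads without a gene took from 7.43% to 12.7% of listed reads (12.7% in EZH2i replicate 3, at most 8.51% elsewhere), ambiguous reads from 2.25% to 2.48%, and reads with several alignments from 21.4% to 22.3%. Reads on genes ranged from 6327544 to 8987768.

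The test across genes was edgeR's two-sided quasi-likelihood F test (edgeR 4.0.16, R 4.3.3) after TMM scaling and filterByExpr at 10 counts, with Benjamini-Hochberg adjustment over 12364 genes and a threshold of 0.05. Each SE was derived from that F statistic, as the absolute log2 fold change over its square root. CPM uses reads on genes times the TMM factor. Replicate pairs within a group differed by more than sampling noise (chi-square over degrees of freedom, 4.56 to 12.8). Symbols, positions and exons come from GENCODE 44 on GRCh38, a later annotation of the same build, which matched 60401 of 60671 gene identifiers. Windows of 50 bases were searched as exact matches on both strands of the genome; windows across a splice junction, absent from the genome, were searched among all transcripts. The main search counted the primary assembly and unplaced contigs, not the alternate ones. A comparison of exon sequences between the trypsinogen genes is not reported. Members and lists were chosen with earlier results of these data known. Named were the 6 members, tested genes within 200 kb of them, list genes past the threshold or otherwise the 3 with the highest mean CPM, the most abundant gene of a list, and the 5 genes nearest to *PRSS2* in pattern. Alternatives were DESeq2 1.42.0, limma-voom (limma 3.58.1), other size factors, filters, scales and windows, a replicate block and leaving out each library. The fit was also run on simulated counts, and the outcome is not reported.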

Additional observations from a re-analysis of the deposited data

How the results depend on the processing

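The log2 fold changes of the 4 tested members kept their sign under every alternative that gave a value: 1.09 to 1.26 for *PRSS2* and 0.05 to 0.28 for *PRSS21* over 12 alternatives, and 0.55 to 0.87 for *PRSS1* and 0.62 to 1.16 for *PRSS57* over 11. The filter of at least 10 counts in every library removed *PRSS1* and *PRSS57*, so it gave no value for them. Low counts limit these 2 genes. Calls of *EPHB6*, *PALM*, *HBZ*, *TRAC* and *SERPING1* held under all alternatives that gave a value, with an adjusted p (edgeR, DESeq2 or limma-voom) of at most 0.0311. The 5 genes nearest to *PRSS2* were the same 5 with RLE size factors. The number of genes called, 527, was 928 with every gene kept (579 higher and 349 lower, 62.4% higher) and from 209 to 536 when a library was left out. Without DMSO replicate 1, 2 or 3 the number was 213, 209 and 240. Without EZH2i replicate 1, 2 or 3 it was 536, 399 and 429. The cause of these changes was not tested. DESeq2 called 292 higher and 143 lower (67.1% higher, against 413 and 114, 78.4%). Replicate numbers did not pair the samples (correlations of deviations -0.04, -0.02 and -0.01, and no library was nearest to its own number); with a replicate block 599 genes were called, and none of the calls given for list genes and neighbours was lost.

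*PRSS1* in percent of *PRSS2*, 0.921 in DMSO and 0.682 in EZH2i by CPM, was 0.620 and 0.459 per kb of exon, by the different exon lengths. CPM without TMM factors stayed within 1 SD for all members. Shares of windows found in no second place moved with the stretch and the window length. In the last 300 bases they were 82.2% for *PRSS2*, 95.2% for *PRSS3* and 73.7% for *PRSS3P1*, and over whole transcripts 90.2% for *PRSS3P1* and 98.8% for *PRSS21*. With 40-base windows they were 85.0% for *PRSS2*, 82.0% for *PRSS1*, 89.3% for *PRSS3* and 79.2% for *PRSS3P1*, since shorter windows hold fewer differences.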

Other observations

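Some list genes that did not pass the filter on low counts are named here after their values were seen, so they do not stand for their lists. *F2RL1*, which encodes the receptor that trypsin cleaves, had 1, 3 and 4 reads in DMSO and 5, 9 and 8 in EZH2i replicates 1, 2 and 3. *MASP1*, a protease gene of the complement lectin pathway, had 6, 8 and 3 and then 15, 13 and 6 reads. *PRTN3*, in the same granule protease cluster on chromosome 19 as *PRSS57* and *CFD*, reached 11 reads in DMSO replicate 2 and 20 in EZH2i replicate 3. Summed over the libraries, all of these had more reads in EZH2i, and other untested list genes had fewer. *MASP2*, for example, had 0, 4 and 1 reads in DMSO and 0, 0 and 0 in EZH2i. No test was made at these counts, and the share over all such genes is not given.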
